A study of Mus musculus with 51 samples.

Results

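The nuclear factor I (NFI) family of transcription factors has 4 genes in the mouse, Nfia, Nfib, Nfic and Nfix, and their chromatin was followed through the differentiation of neural progenitors into astrocytes. All peaks of H3K27ac and H3K4me1 that overlapped the body of a member or the 50 kb on either side were taken, which gave 1404 of the 803595 peaks in the 6 peak lists, for 4 of 22359 coding genes. Acetylation of lysine 27 on histone H3 (H3K27ac) marks active promoters and enhancers, and monomethylation of lysine 4 (H3K4me1) marks enhancers whether or not they are active. Embryonic stem cells of the C57/BL-6 strain were turned into neural progenitors (aNPC), which were kept in DMEM-F12 with N2, EGF and FGF-2. Early astrocytes (eA) had spent 1 day and mature astrocytes (lA) 5 days in DMEM with fetal bovine serum and LIF. The labels of these 3 stages name no siRNA. The 2 biological replicates of a stage and mark were merged by the authors before peaks were called, so each value below comes from 1 list per mark and stage and has no replicate error and no test. The series holds 51 samples, and its RNA-seq and its siRNA-treated cultures, including those depleted of Nfia, were not analysed here.

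NFI proteins bind DNA as dimers through a conserved amino-terminal domain, and their palindromic site is TTGGC and GCCAA with 5 bases between. In the developing nervous system Nfia and Nfib are needed for the switch from making neurons to making glia, and Nfia acts downstream of Sox9 on astrocyte genes such as Gfap. Nfix is known from neural stem cells and the developing hippocampus and muscle, and Nfic from the growth of tooth roots. Throughout, −log10 q is the peak caller's confidence, which depends on the depth of a library. It was compared only within a list, except that the highest value over the 3 lists chose the sites to name and the summit of a site. Across stages the place of a peak in its own list is given instead, as the share of the list with a −log10 q at least as high, so that a peak in the top 5% stands higher than one in the top 50%.

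The sequences on which the stage differences below rest are given first, each as the 200 bases around a summit on the plus strand of mm9, with capitals for the NFI core TTGGCA or TGCCAA, for the AP-1 letters TGANTCA and for the RUNX letters TGTGGT or ACCACA. None of them touches an annotated exon. The first line in Nfia is the summit with the most NFI cores of any H3K27ac peak in the windows, the second is the highest H3K27ac peak of Nfia in lA, and the other two gained H3K27ac after aNPC.
Nfia intron, eA H3K27ac summit, chr4:97670561-97670760: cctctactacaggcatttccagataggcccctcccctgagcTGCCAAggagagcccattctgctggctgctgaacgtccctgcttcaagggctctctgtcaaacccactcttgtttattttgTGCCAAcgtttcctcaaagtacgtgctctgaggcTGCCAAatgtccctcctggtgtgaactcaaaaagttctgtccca
Nfia intron, lA H3K27ac summit, chr4:97774701-97774900: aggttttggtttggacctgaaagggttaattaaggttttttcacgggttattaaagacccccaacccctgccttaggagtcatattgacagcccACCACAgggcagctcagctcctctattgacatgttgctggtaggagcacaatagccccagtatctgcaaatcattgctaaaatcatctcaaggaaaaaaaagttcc
Nfia intron, H3K27ac from eA, chr4:97605687-97605886: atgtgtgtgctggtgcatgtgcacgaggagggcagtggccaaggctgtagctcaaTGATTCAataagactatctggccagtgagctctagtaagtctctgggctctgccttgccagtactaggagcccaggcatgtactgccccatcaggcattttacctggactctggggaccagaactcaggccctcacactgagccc
Nfia downstream flank, H3K27ac from eA, chr4:97911371-97911570: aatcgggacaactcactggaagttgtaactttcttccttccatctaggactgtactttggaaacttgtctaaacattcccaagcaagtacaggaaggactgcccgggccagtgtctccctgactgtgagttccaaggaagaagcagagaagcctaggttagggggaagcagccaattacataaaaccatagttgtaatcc

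In the other genes the lines show leading peaks of a stage. They are the highest H3K27ac peak of Nfib in aNPC and in lA and the highest of those it had in aNPC only, the highest of Nfix in lA and in aNPC, and the highest H3K4me1 peak of Nfic in lA.
Nfib intron, strongest in aNPC, chr4:81950438-81950637: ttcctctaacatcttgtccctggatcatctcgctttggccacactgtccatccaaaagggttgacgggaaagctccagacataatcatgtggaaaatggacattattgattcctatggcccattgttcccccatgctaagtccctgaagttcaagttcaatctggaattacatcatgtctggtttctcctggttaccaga
Nfib intron, strongest in lA, chr4:82179214-82179413: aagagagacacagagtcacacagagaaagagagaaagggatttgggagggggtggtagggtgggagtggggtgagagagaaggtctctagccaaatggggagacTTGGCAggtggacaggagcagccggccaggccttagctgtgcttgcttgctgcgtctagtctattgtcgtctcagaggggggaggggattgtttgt
Nfib downstream flank, H3K27ac in aNPC only, chr4:81933626-81933825: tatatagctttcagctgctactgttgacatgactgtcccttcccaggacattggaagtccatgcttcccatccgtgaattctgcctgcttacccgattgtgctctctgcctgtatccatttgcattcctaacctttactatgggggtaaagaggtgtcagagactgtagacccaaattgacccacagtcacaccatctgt
Nfix upstream flank, strongest in lA, chr8:87335314-87335513: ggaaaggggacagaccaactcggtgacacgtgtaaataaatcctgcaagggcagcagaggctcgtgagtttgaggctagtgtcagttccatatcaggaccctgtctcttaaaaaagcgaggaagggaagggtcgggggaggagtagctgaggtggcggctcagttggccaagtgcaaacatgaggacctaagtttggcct
Nfix intron, strongest in aNPC, chr8:87317904-87318103: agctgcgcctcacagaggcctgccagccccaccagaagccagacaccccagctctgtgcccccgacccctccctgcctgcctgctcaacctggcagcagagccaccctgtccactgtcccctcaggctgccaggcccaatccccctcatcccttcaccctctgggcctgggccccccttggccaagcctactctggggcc
Nfic upstream flank, H3K4me1 summit of lA, chr10:80898027-80898226: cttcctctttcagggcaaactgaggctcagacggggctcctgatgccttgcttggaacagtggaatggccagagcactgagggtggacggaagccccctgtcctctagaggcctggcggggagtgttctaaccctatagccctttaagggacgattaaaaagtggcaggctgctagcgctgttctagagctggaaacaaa

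The members lie on 3 chromosomes and differ in size (mm9, GENCODE). Nfia (ENSMUSG00000028565.11) covers chr4:97439425-97868605 on the plus strand with 9 coding start sites, and Nfib (ENSMUSG00000008575.10) covers chr4:81936077-82351654 on the minus strand with 4. Nfic (ENSMUSG00000055053.10) spans chr10:80858931-80893750 and Nfix (ENSMUSG00000001911.9) spans chr8:87223775-87324243, both on the minus strand with 5 coding start sites each. Nfia and Nfib are thus about as long as each other, at 429 and 416 kb, while Nfix has 100.5 kb and Nfic 34.8 kb. The window of Nfib holds no other coding gene. That of Nfia holds 1, E130114P18Rik, which is read in the opposite direction and starts beside the Nfia promoter. The windows of Nfic and Nfix hold 7 and 9 other coding genes, so that many of their peaks lie at neighbours.

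**Figure D1:**
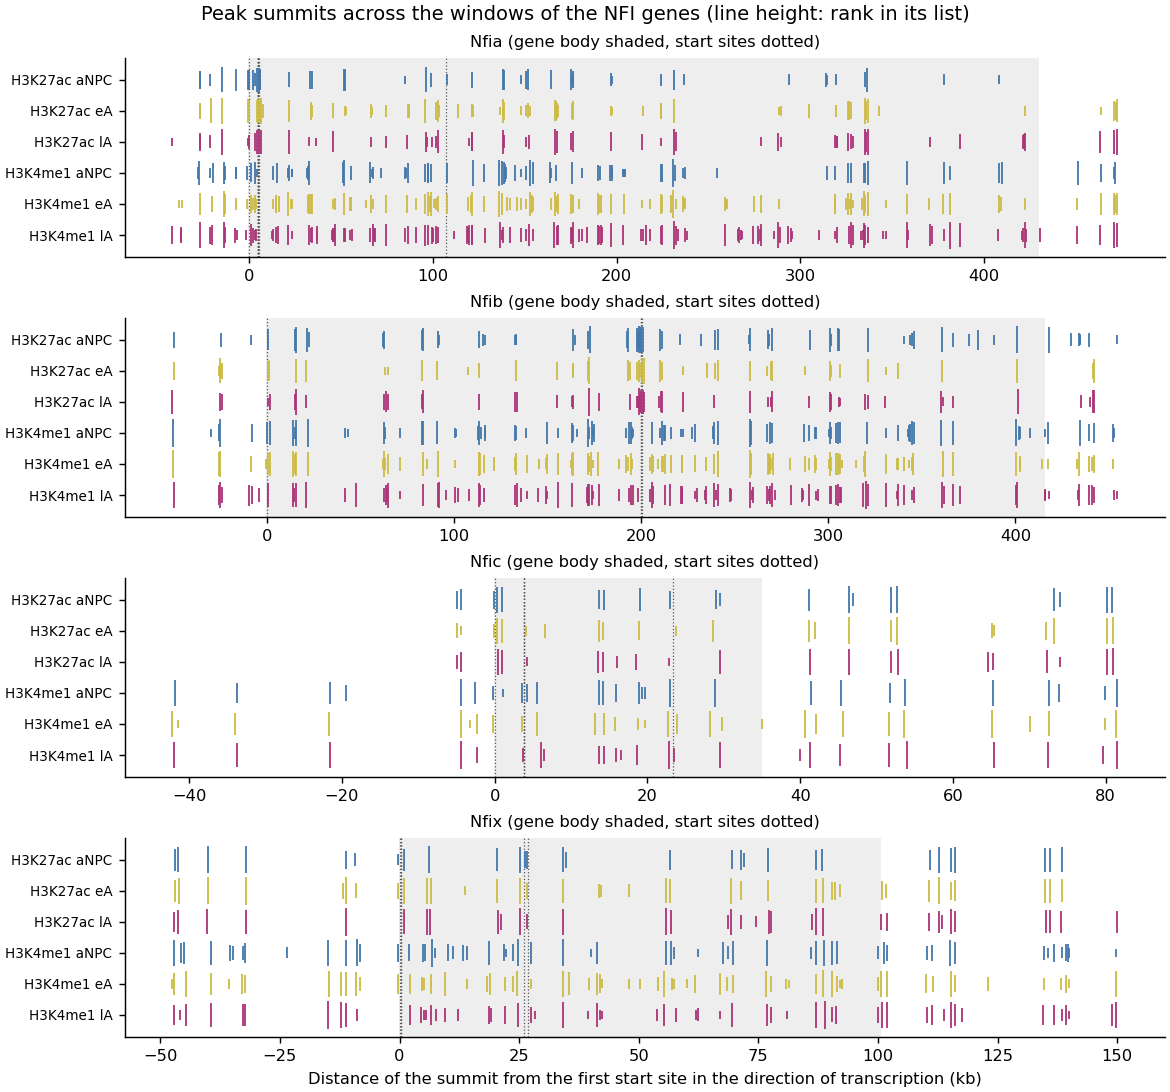
Summits of H3K27ac and H3K4me1 peaks in the 4 windows, against the distance in kb from the first start site in the direction of transcription. Each line is a peak in one list, taller where it ranks higher in that list, with aNPC in blue, eA in yellow and lA in purple, and peaks of Nfia and Nfib spread through the gene body while those of Nfic and Nfix crowd into shorter windows.

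H3K27ac peaks became more numerous around Nfia and fewer around Nfib between aNPC and eA. For aNPC, eA and lA in turn, the order kept below, Nfia had 45, 65 and 59 peaks. Nfib had 67, 49 and 54, with the most in aNPC, where Nfia had the fewest. Nfix had 29, 38 and 35 peaks, and Nfic 20, 23 and 21. The number at eA over that at aNPC was 1.44 for Nfia, 1.31 for Nfix, 1.15 for Nfic and 0.731 for Nfib. Among the 848 coding genes with at least 20 such peaks in aNPC the median of this ratio was 0.909, and the ratio of Nfia was above that of 94.7% of these genes, that of Nfix above 90.2% and that of Nfib above 27.7%. These genes were kept for their number of peaks in aNPC, on which the ratio rests, and their median lies below the 1.05-fold growth of the list, so the places of Nfia and Nfix among them are a description and may be too high. With each list cut to the length of the shortest, Nfia had 45, 59 and 46 H3K27ac peaks, so that its excess in lA over aNPC was down to 1 peak, and Nfib had 67, 45 and 49. In all, the family held 161, 175 and 169 H3K27ac peaks at the 3 stages, in lists of 79413, 83433 and 92700 peaks. A mark in fewer of the cells cannot be told apart from a weaker mark in all of them.

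H3K4me1 peaks were gained mainly around Nfia. For Nfia they numbered 84, 109 and 134, and for Nfib 93, 101 and 111. Nfix had 60, 65 and 59 and Nfic 28, 30 and 25. The lists themselves grew from 154238 to 185478 and 208333 peaks. The ratio of lA to aNPC was 1.60 for Nfia, above 91.1% of the 4053 coding genes with at least 20 peaks in aNPC, whose median was 1.1. These genes too were kept for their number in aNPC, and the list grew 1.35-fold, so this place may be too high as well. When each list was cut to the 154238 peaks of the shortest, Nfia had 84, 85 and 97 peaks, so its gain in eA came almost wholly from the peaks of lowest rank in a longer list. Under the same cut the H3K4me1 peaks of Nfib numbered 93, 82 and 86.

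**Figure D2:**
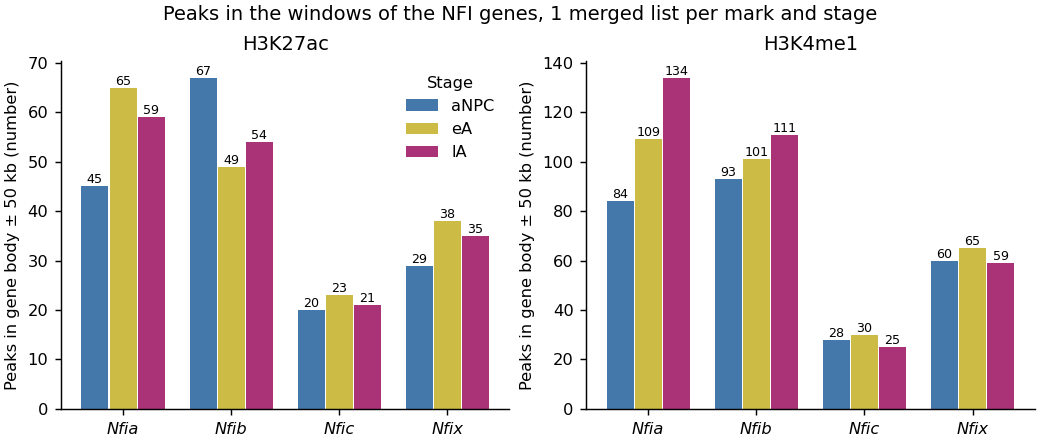
Number of H3K27ac peaks (left) and H3K4me1 peaks (right) in the body of each gene and 50 kb on either side, with 1 bar per merged list and its count above the bar. Nfia rises from 45 to 65 H3K27ac peaks between aNPC and eA while Nfib falls from 67 to 49.

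All 4 windows were dense in H3K27ac, each above 81.7% of coding genes or more at every stage. Nfix held 14.5, 18.96 and 17.5 H3K27ac peaks per 100 kb, against a median over all coding genes of 3.88, 4.73 and 4.81, and stood above 97.7%, 99.1% and 98.8% of them. Its H3K4me1 density of 29.9, 32.4 and 29.4 peaks per 100 kb was above that of 99.7% of coding genes or more at each stage. Nfic held 14.8, 17.1 and 15.6 H3K27ac peaks per 100 kb. In both windows a large part lay at neighbours. Of the 20 H3K27ac peaks around Nfic in aNPC, 8 overlapped the promoter of another gene and 1 lay inside one, and of the 29 around Nfix these numbers were 7 and 3. Nfia and Nfib, whose windows hold almost nothing else, had 8.50 and 13.0 H3K27ac peaks per 100 kb in aNPC. Introns took most of these. In Nfia 33 of 45 H3K27ac peaks of aNPC, 50 of 65 of eA and 46 of 59 of lA were placed in an intron, and in Nfib 52 of 67, 37 of 49 and 42 of 54 did.

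Every member carried a promoter peak in each list, a promoter being the 1 kb before a coding start site with the first 100 bp after it. With the summit required to lie in the promoter this held for all but H3K4me1 in lA, where 2 of the 4 members had one. Of all coding genes, 50.6%, 53.2% and 48.2% had a promoter H3K27ac peak at the 3 stages in turn, and 55.4%, 53.6% and 52.7% had a promoter H3K4me1 peak. A gene with several start sites has more chances of such a peak than a gene with 1, and all members have at least 4. The members differed far more in how high these peaks ranked.

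At Nfib the central promoter was acetylated at every stage and had no H3K4me1. Over the 3 start sites between 82151212 and 82151674, which lie in the middle of the gene, 4 H3K27ac peaks stood side by side in each list. The one furthest upstream, at chr4:82152616-82152961 in aNPC, stood in the top 5.96% of its list, fell to the top 27.03% in eA and was back in the top 5.16% in lA. The one over the start site at 82151611 went from the top 9.87% to 13.2% and 23.5%. The peak just inside the transcripts, chr4:82150073-82151206 in aNPC, held the top 12.8%, 8.77% and 17.9%, and the weakest of the 4 held the top 14.2%, 62.7% and 44.7%. No H3K4me1 peak overlapped these promoters at any stage. The start site at 82351654, at the far end of the gene, differed. Its H3K4me1 held the top 29.7%, 26.8% and 19.97%, and H3K27ac overlapped its promoter in the top 34.9% of aNPC and 41.4% of eA. In lA the same site, chr4:82349901-82351780, kept H3K27ac inside the gene, in the top 58.5%, and no peak overlapped the promoter window.

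At Nfia the promoter peaks differed in rank between start sites, and some changed in rank with the stage. Upstream of the start sites from 97444299 on, the H3K27ac peak at chr4:97443267-97443993 in aNPC was in the top 16.7%, then the top 29.4% in eA and 20.2% in lA. The peak over the last of these start sites held the top 17.5%, 21.4% and 18.5%. At the first start site of the gene, 97439425, H3K27ac ranked highest in eA: the upstream peak held the top 39.3%, 18.9% and 98.0%, the last near the bottom of the list. The peak over that start site itself held the top 39.3%, 34.3% and 66.5%. Just inside the gene, 1185 bp past the start site at 97444595, the H3K27ac site at chr4:97445438-97446655 went from the top 36.2% to 11.1% and 21.8%. This site also overlaps the promoter of E130114P18Rik. The internal start site at 97546810 had H3K27ac in aNPC only, in the top 82.3%, and H3K4me1 in aNPC and eA, in the top 42.4% and 40.1%. The H3K4me1 peaks at the other start sites were weak, between the top 69.9% and 94.1% of their lists.

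At Nfix acetylation was concentrated upstream of the start site at 87298268. A wide H3K27ac peak there, chr8:87298342-87299804 in aNPC with a width of 1463 bp, held the top 7.15%, 10.3% and 5.26%. An H3K4me1 peak overlapped its upstream side, in the top 5.46%, 14.0% and 16.5%. The upstream group of start sites between 87323923 and 87324243 had weak H3K27ac in aNPC and eA, in the top 82.5% and 55.8%, and none in lA. Just past that window, in an intron, the site at chr8:87322467-87323519 was acetylated at every stage, in the top 29.7%, 11.8% and 13.7%. The start site at 87297295 had weak H3K27ac at every stage, in the top 50.1%, 56.0% and 63.6%. H3K4me1 at the upstream group was found with the top 48.1% in aNPC, 36.9% in eA and no peak in lA.

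At Nfic the promoter window itself held only weak H3K27ac, and none of its peaks was at all 3 stages. The start site at 80893750 had peaks in the top 48.7% of aNPC and 69.1% of eA, and that at 80870386 in the top 46.9% of aNPC and 95.5% of lA. A weak site just inside the start site at 80889859 was in the top 86.2% of eA and 92.3% of lA, where it lay past the edge of the promoter window. H3K4me1 at 80870386 ranked far higher, in the top 3.54%, 14.0% and 2.47%. The highest H3K27ac of Nfic lay just past the promoter window, with summits 332 to 385 bp downstream of the start site at 80893750 in an intron, in the top 9.63%, 6.41% and 10.5%, with no H3K4me1 at any stage. A neighbouring site at chr10:80892536-80893073 held the top 16.1%, 17.0% and 17.4%. The peaks with the highest −log10 q of the whole window lay at other genes, with 152 at the promoter of Fzr1 in aNPC, 138 at the same promoter in eA and 48.4 at that of Hmg20b in lA.

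Peaks of the 3 stages that overlapped by at least 1 bp were joined into sites, which gave 224 H3K27ac sites around the family, 80 for Nfia, 79 for Nfib, 24 for Nfic and 41 for Nfix. Of these, 91 (40.6%, 95% exact binomial interval 34.1 to 47.4%) had a peak at all 3 stages, against 26% of the 132992 sites of the genome. Such intervals cover counting error only, and neighbouring sites are not independent. The share was 58.5% (24 of 41) for Nfix and 62.5% (15 of 24) for Nfic, where promoters of neighbours contribute. It was 30% for Nfia and 35.4% for Nfib.

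Nfib had a larger share of sites acetylated in aNPC alone than the genome, but mostly at peaks with a −log10 q below 10. Of its 26 such sites, 3 had a −log10 q of at least 10, and the share of such strong sites over the genome was not taken. Peaks in aNPC only were found at 26 of 79 sites of Nfib (32.9%, interval 22.7 to 44.4%), 12 of 80 of Nfia, 1 of 24 of Nfic and 2 of 41 of Nfix, against 21.5% of all sites. Peaks in eA and lA but not in aNPC were found at 17 of 80 sites of Nfia (21.3%, interval 12.9 to 31.8%), 9 of 79 of Nfib, 2 of Nfic and 2 of Nfix, against 13.9% of all sites, which lies inside that interval. Nfia had a further 9 sites in eA only (11.25%) and 11 in lA only (13.75%), the latter below the share of all sites. In lA only, the family had 19 of 224 sites (8.48%, genome 19.3%), and in eA only 23 (10.3%, genome 11.1%). Nfix had the most sites in eA only for its size, 7 of 41.

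**Figure D3:**
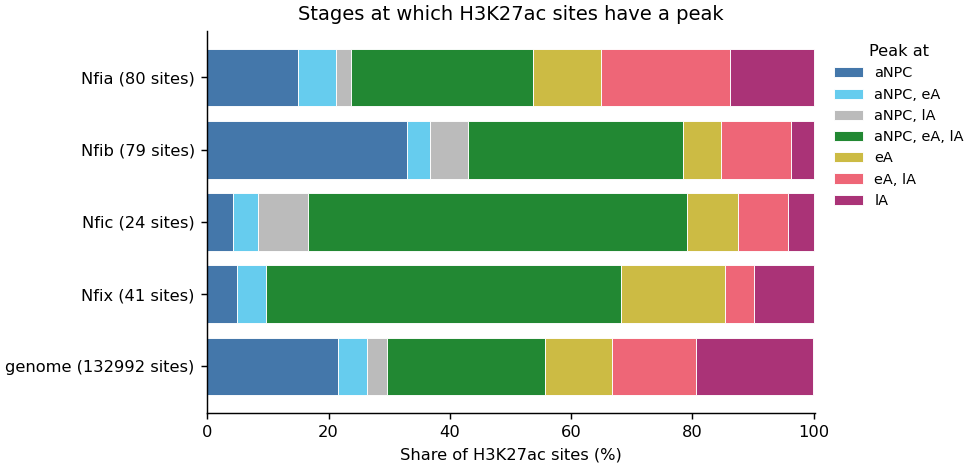
Share in percent of H3K27ac sites by the stages at which they have a peak, for each gene and for all 132992 sites of the genome, with the number of sites in brackets. Nfib has the widest aNPC-only part (32.9%), Nfia the widest part shared by eA and lA (21.3%), and Nfic and Nfix are mostly marked at all 3 stages.

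The highest H3K27ac peak of the Nfia window in aNPC and eA lay upstream, inside E130114P18Rik, in the top 13.9% and 10.1%, and that site was still in the top 10.15% in lA. The strongest of the sites that came up in Nfia lay in its downstream flank and in introns. The site at chr4:97910931-97912119, which begins 42326 bp past the end of the gene, had no H3K27ac in aNPC, stood in the top 25.3% in eA and reached the top 7.16% in lA, and it carried H3K4me1 at all 3 stages. The intronic site at chr4:97605390-97606039 came from no peak in aNPC to the top 33.6% in eA and 10.17% in lA, and had H3K4me1 only from eA on. The 200 bases at its summit, printed above, hold 1 AP-1 match and no NFI core. Another, at chr4:97541818-97542791 with its summit 4717 bp upstream of the internal start site, held the top 26.9% in eA and 25.0% in lA, again with H3K4me1 only from eA. In the other direction, sites at chr4:97490640-97491258 in an intron and at chr4:97432126-97432464 upstream, inside E130114P18Rik, were acetylated in aNPC only, in the top 26.0% and 31.4%, and kept H3K4me1 at all 3 stages.

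Some sites of Nfia that were already acetylated in aNPC stood higher later. They were picked for their later rank, and over all its sites found at every stage 11 of 24 stood higher in lA than in aNPC. The intronic site at chr4:97773733-97775108, with its lA summit 227991 bp from the nearest upstream start site, went from the top 62.0% to 12.7% and 7.07%, where it was the highest H3K27ac peak of the window. The site at chr4:97669940-97671690 went from 39.9% to 19.9% and 11.5%. It lies on the highest H3K4me1 peak of Nfia at each stage, in the top 2.43%, 0.536% and 2.76%. Around its eA summit 3 NFI cores stand within 200 bases, as the first sequence shows. Other sites did not keep a high rank. The intronic site at chr4:97534889-97536722 went from the top 15.1% to 21.3% and 42.4%, and the site at chr4:97417888-97419560 inside E130114P18Rik rose from 79.7% to 13.7% in eA and was back at 72.8% in lA.

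Several sites of Nfib that were picked for their rank in aNPC stood lower later. The highest H3K27ac peak of Nfib in aNPC, at chr4:81948884-81951529 with a width of 2646 bp, was in the top 3.29%, and the site was in the top 21.2% in eA and 15.02% in lA. The site at chr4:81933358-81935021, which lies 1056 bp past the end of the gene, stood in the top 8.34% in aNPC and had no H3K27ac in eA or lA, while H3K4me1 was found there at all 3 stages. No other site of the family that was acetylated at 1 stage only stood in the top 20% of a list. An intronic site at chr4:82046136-82046905, in the top 24.7% of aNPC, was likewise lost and kept H3K4me1, and 1 at chr4:81971073-81971995, in the top 38.5%, had no H3K4me1 at any stage. A leading site that stayed high was that at chr4:82177696-82179592, 27640 bp upstream of the central start sites, with the top 5.34%, 4.86% and 1.12%, which made it the highest H3K27ac peak of Nfib at both later stages. In the upstream flank the site at chr4:82376058-82376863 was high in eA alone, with the top 70.6%, 14.9% and 49.8%. Of the sites that came up, the highest was at chr4:81908919-81909862 in the downstream flank, in the top 20.3% of eA and 23.6% of lA, and its neighbour at chr4:81910030-81910979 followed in the top 55.9% and 23.2%.

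Of the sites of Nfix away from its neighbours, the highest of lA was not the highest of aNPC. The sites below were picked for their rank in lA and are not a sign of a general gain, since over all its sites found at every stage 11 of 24 stood higher in lA than in aNPC. The site at chr8:87335099-87336659, 11171 bp upstream of the first start site, held the top 49.95%, 5.47% and 1.25%. Its −log10 q of 9.81 in aNPC lay close to the median of that list, 9.80, and its 79.1 in lA compares with a median of 8.34. Inside the gene, the site at chr8:87235124-87236561 went from the top 30.8% to 14.3% and 2.51%, that at chr8:87254142-87255819 from 45.3% to 10.4% and 6.72%, and that at chr8:87267185-87269255 from 39.6% to 12.8% and 5.73%. All of these carried H3K4me1 at all 3 stages. The highest H3K27ac peak of Nfix in aNPC, at chr8:87317413-87319127 in an intron, stood in the top 3.98% and then in 10.7% and 7.99%. Without H3K27ac in aNPC, Nfix had 7 sites in eA only, 2 in eA and lA and 4 in lA only, and none of them stood in the top 20% of a list. The highest, at chr8:87174024-87174614 in the downstream flank, was found in lA only in the top 31.9%. A site over the end of the gene and inside a neighbour, chr8:87223024-87224168, held the top 42.5% of eA and 54.9% of lA, and 1 in an intron, chr8:87232950-87233224, the top 47.8% of eA alone. In the window of Nfic the only new site with a −log10 q of at least 10, chr10:80828191-80829231, lay at the promoter of another gene.

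Over the sites with H3K27ac at all 3 stages, most of those of Nfib went down in rank. Of its 28 such sites, 8 (28.6%) stood higher in eA than in aNPC, against 55.2% of the 34512 such sites of the genome. The counts were 14 of 24 for Nfia, 8 of 15 for Nfic and 13 of 24 for Nfix. Between aNPC and lA, 8 of 28 sites of Nfib rose, with 11 of 24 for Nfia, 5 of 15 for Nfic, 11 of 24 for Nfix and 50.4% of all sites. Between eA and lA, 38 of the 91 sites of the family (41.8%) rose, against 48.8%. Of all H3K27ac peaks in the window of Nfix, 5 of 29, 5 of 38 and 8 of 35 stood in the top 10% of their lists (17.2%, 13.2% and 22.9%), where a list as a whole has 10%. Nfib had 6 of 67, 2 of 49 and 2 of 54, Nfic 4 of 20, 5 of 23 and 3 of 21, and Nfia 0 of 45, 0 of 65 and 2 of 59. Most of these peaks of Nfic, and of Nfix in aNPC and eA, lay at neighbours: leaving out sites at other genes, 2, 1 and 8 of the 29 sites of Nfix and 1, 1 and 0 of the 14 of Nfic stood in the top 10%.

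**Figure D4:**
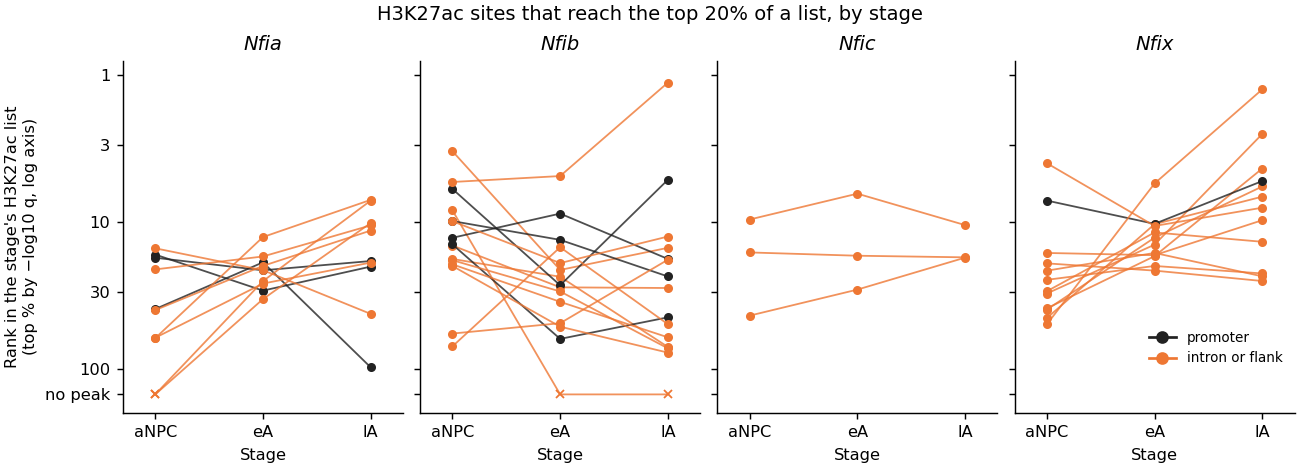
Rank of H3K27ac sites at the 3 stages, as the top percent of each list on a log axis with the highest rank at the top, for sites that reached the top 20% of any list and do not lie at a neighbouring gene. Promoter sites are black, sites in introns and flanks orange, and crosses mark stages with no peak. Since a site is drawn for a high rank at any stage, the lines do not show how all sites moved, and in lA the highest line of Nfix comes from the top 49.95% of aNPC and that of Nfib from the top 5.34%.

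The study asked whether H3K4me1 lies at regulatory regions before H3K27ac, and at Nfia this was so for 12 of 30 peaks that were new in eA. Of the 65 H3K27ac peaks of Nfia in eA, 30 (46.2%) overlapped none in aNPC, against 43.8% of all peaks. H3K4me1 was present in aNPC at 12 of these 30 (40%, interval 22.7 to 59.4%), against 64.1% of all such peaks. It was present in eA at 23 of them (76.7%, all peaks 83.4%). Some of the 30 are parts of the same site and so not independent, as at chr4:97606332-97607479, which as a whole overlapped H3K4me1 in aNPC. The interval may thus be too narrow, and the 40% is not read as differing from 64.1%. At Nfib 10 of 15 new peaks, at Nfic 7 of 7 and at Nfix 5 of 10 had H3K4me1 in aNPC. At lA, 16 of 59 peaks of Nfia (27.1%, all peaks 33.9%) overlapped none in eA. H3K4me1 was present in eA at 8 of them (50%, interval 24.7 to 75.3%, all peaks 65.8%) and in lA at all 16 (all peaks 75.5%). Over the family, 19 of 32 peaks new at lA had H3K4me1 in eA. In total, H3K4me1 preceded new H3K27ac at 34 of 62 peaks of the family at eA (54.8%, interval 41.7 to 67.5%).

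**Figure D5:**
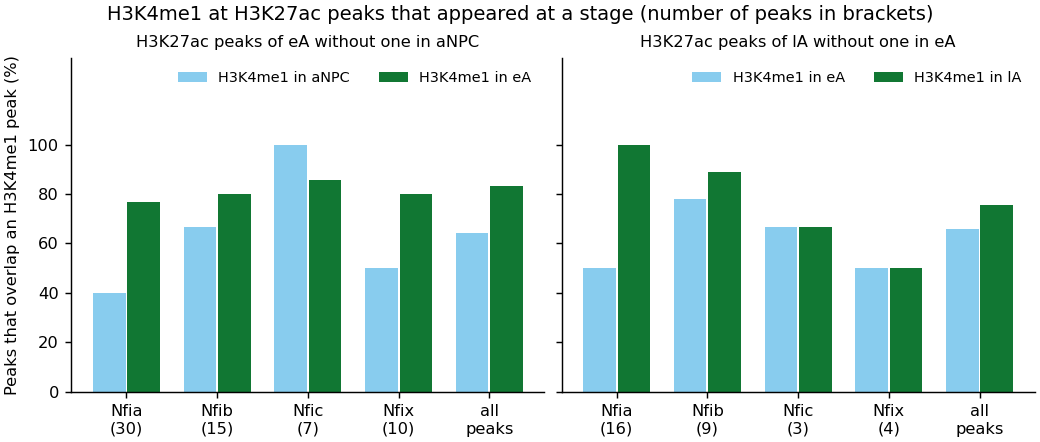
Share in percent of H3K27ac peaks that appeared at eA (left) or at lA (right) and overlap an H3K4me1 peak, at the stage before (light blue) and at the same stage (green), for each gene, with the number of new peaks in brackets, and for all peaks of the lists. At Nfia 40% of the peaks new at eA had H3K4me1 in aNPC and 76.7% had it in eA.

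Peaks whose H3K27ac was absent from the next list were compared with the H3K4me1 of that list, whether or not H3K4me1 had been there before. The shares rest on few peaks and none is read as differing from that of all peaks. Of the 67 H3K27ac peaks of Nfib in aNPC, 31 (46.3%) overlapped none in eA, against 42.8% of all peaks, and 18 of these 31 (58.1%) had H3K4me1 in eA, against 67.6%. Nfia lost 14 of 45, of which 10 had H3K4me1 in eA, while Nfic lost 3 of 20 and Nfix 2 of 29. Between eA and lA the family lost 40 of 175 peaks (22.9%, all peaks 28.2%), and 25 of the 40 (62.5%, all peaks 72.3%) overlapped H3K4me1 in lA. H3K4me1 without H3K27ac at any stage was found at 78 of 150 H3K4me1 sites of Nfia (52.0%), 64 of 126 of Nfib (50.8%), 11 of 32 of Nfic (34.4%) and 39 of 76 of Nfix (51.3%), against 59.2% of all 251555 such sites.

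More H3K4me1 sites were found in lA only than in aNPC only, in Nfia as in the whole of the longer lists. Of its 150 H3K4me1 sites, 30 (20%, interval 13.9 to 27.3%) had peaks in eA and lA but not in aNPC, against 12% of all sites, and 40 (26.7%) in lA only, against 23.3%. With a −log10 q of at least 5 the first share fell to 12.6%, against 11.3% of all sites, so much of it came from weak peaks. Peaks in aNPC only were found at 9 sites of Nfia (6%), against 7.8%. Nfib had 13 of 126 sites in eA and lA and 21 in lA only. Over the family, 170 of 384 H3K4me1 sites (44.3%) were found at all 3 stages, against 39.1%, and 32 in aNPC only (8.33%).

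The highest H3K4me1 peaks of the windows lay away from start sites. In Nfib they were at 3 places, the intronic chr4:82093378-82094304 in the top 1.10% of aNPC, the upstream flank at chr4:82400978-82402557 in the top 1.52% of eA and the intronic chr4:82031271-82032258 in the top 2.70% of lA. In Nfic the highest of aNPC, in the top 0.998%, was in an intron 5443 bp from the start site at 80870386. In eA it lay inside another gene. In lA it was the flank at chr10:80897402-80899076, 4377 bp upstream of the gene's first start site and in the top 0.791%, whose summit is printed above. The highest of Nfix were of lower rank, in the top 3.45%, 4.71% and 4.06%, and lay in introns in aNPC and eA and 14973 bp upstream in lA.

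The family's own H3K27ac peaks were searched for the letters that its proteins bind. Within 200 bases, TTGGCA or its reverse complement TGCCAA was found at 26 of 161 peaks in aNPC (16.1%, interval 10.8 to 22.8%), 24 of 175 in eA (13.7%, 8.99 to 19.7%) and 25 of 169 in lA (14.8%, 9.81 to 21.1%). The shares of all peaks, 11.1%, 11.5% and 11%, lie inside each interval. The full palindrome, TTGGC and GCCAA with 5 bases between, was found at no summit of the family and at 0.0189%, 0.0252% and 0.0162% of all peaks. Its ends read TTGGC and GCCAA, so a palindrome may hold the core as well. The AP-1 letters TGANTCA, which read alike on both strands, were found at 7, 10 and 8 peaks of the family (4.35%, 5.71% and 4.73%), against 5.83%, 5.7% and 5.67%. The RUNX letters TGTGGT or ACCACA were found at 18, 21 and 24 (11.2%, 12.0% and 14.2%), against 13.6%, 13% and 13.8%. By gene the RUNX letters were most frequent at Nfib in eA, with 13 of 49 peaks, a value picked as the highest of all genes and stages. Nfib had them at 10 of 67 peaks in aNPC and 7 of 54 in lA, and Nfic at 0 of 23 in eA. Nfia had them at 3 of 65 peaks in eA and at 9 of 59 in lA. A match describes letters and does not show that a factor was bound.

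The study's PCR primers for chromatin regions at the family were placed on mm9 by exact match, and each pair had 1 match in the genome. The sequences of the products are shown because they say where the family was tested by PCR.
Nfia, upstream pair, chr4:97285332-97285391: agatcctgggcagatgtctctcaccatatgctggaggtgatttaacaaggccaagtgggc
Nfia, far upstream pair, chr4:96949871-96949961: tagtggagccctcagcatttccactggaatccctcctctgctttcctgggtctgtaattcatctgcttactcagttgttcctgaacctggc
Nfix, intronic pair, chr8:87283071-87283145: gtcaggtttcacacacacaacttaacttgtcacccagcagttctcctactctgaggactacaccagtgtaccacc

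None of these products lies at an annotated promoter of its gene. The pair that the study assigned to the Nfia promoter, agatcctgggcagatgtctc and gcccacttggccttgtta, bounds 60 bases located 154064 bp upstream of the first Nfia start site, in an intron of E130114P18Rik. That place had no H3K27ac peak in aNPC, then 1 in the top 12.7% of eA and the top 10.97% of lA, with H3K4me1 in the top 5.68% of aNPC, none in eA and the top 19.4% of lA. A second pair named for Nfia, tagtggagccctcagcattt and gccaggttcaggaacaactg, lies 489509 bp upstream in no annotated gene, with low H3K27ac at each stage, in the top 61.0%, 59.2% and 74.4%. Both lie outside the 50 kb flank. The Nfix pair, gtcaggtttcacacacacaactt and ggtggtacactggtgtagtcctc, lies in an intron 14187 bp downstream of a start site. H3K4me1 was found there in the top 30.4%, 25.1% and 22.5% of the lists, and H3K27ac overlapped the product at no stage. An H3K27ac peak of eA in the top 67.7%, chr8:87282453-87282911, ended just before the product.

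The promoters of the genes around the family were taken from a list of 10 regulators or partners and 14 targets. Of the regulators and partners, 9, 9 and 8 had a promoter H3K27ac peak at the 3 stages. Sox9, the activator of Nfia, and Pou3f2, Rbpj, Lhx2, Atf3, Stat3, Sox2 and Pax6 had it at all 3 stages. Notch1, the receptor upstream of gliogenic signalling, had it in aNPC and eA but not in lA, and Zbtb20 at no stage. Of the 14 targets, 8, 7 and 10 had promoter H3K27ac at the 3 stages. The counts of both lists are to be read against the 50.6%, 53.2% and 48.2% of all coding genes given above, so that of the targets was near that background in aNPC and eA. Gfap, the astrocyte intermediate filament gene, was marked at all 3 stages, as were Fabp7, Zcchc24, Slc1a2, Slc1a3 and Ezh2. Aqp4, the astrocyte water channel gene, and Apcdd1 gained the peak in lA, and Gja1, which encodes connexin 43, from eA on. S100b had it in aNPC only, and Hes1, an effector of Notch signalling, in aNPC and lA but not in eA. Aldh1l1, Mmd2 and Hes5 had it at no stage.

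The stage labels were compared with marker promoters in the same lists. Promoter H3K27ac was found at the progenitor genes Nes and Sox2 at each stage, lA included, and not at Olig2. It was found at 3, 3 and 4 of 6 astrocyte genes, and at Aldh1l1 at no stage. Against the 50.6%, 53.2% and 48.2% of all coding genes, the astrocyte genes were near the background in aNPC and eA. Promoter H3K27ac was found at none of the 2 pluripotency, 3 oligodendrocyte and 2 microglial genes and at 1 of 3 neuronal genes, Tubb3. Promoter peaks do not give the share of cells of a type, and whether other cells contribute to the family's peaks was not tested.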

How the data were processed

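Chromatin of the 3 stages was profiled by ChIP-seq of H3K27ac and H3K4me1. The authors aligned reads uniquely to mm9 with Bowtie and merged the 2 biological replicates of a stage and mark with SAMtools 0.1.19. They called peaks with MACS at its defaults and gave it no input, so the −log10 q, ranks and peak counts have no input correction. The deposited lists give each peak's position, its −log10 q as the authors' peak caller wrote it, and the offset of its summit. They hold no read counts, so the depth is unknown.

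Peaks overlapping a gene body plus 50 kb on each side were taken, and 4 or 5 peaks per list on other sequences were set aside. Start sites and genes came from GENCODE on mm9, which was also the source of sequences. Peaks of different stages that overlapped by at least 1 bp formed a site. Intervals are exact binomial intervals at 95% and cover counting error only. Python 3.11.15, pysam 0.24.0, SciPy 1.17.1, NumPy 2.4.6, matplotlib 3.10.9 and samtools 1.23.1 were used, and the overlap and motif counting was tested on simulated data.

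Named by rule were the promoter peaks, the peak with the highest −log10 q per window and list, and up to 5 H3K27ac sites per gene with a −log10 q of at least 10 and a peak at 1 stage only or at eA and lA only. Other sites, taken from those in the top 20% of a list, were chosen after their values were seen. The members, the lists of regulators, targets and markers and the processing were chosen with earlier results of these data known. No test was made, since each list stands for 1 merged sample. The alternatives were a −log10 q of at least 5, other windows, lists of equal length, and other rules for promoters, shared sites, overlaps and motif windows. One progenitor marker is not reported here. RNA-seq and the siRNA experiments were not analysed here, and for 8 of the RNA-seq samples the labels contradict each other on the group.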

Additional observations from a re-analysis of the deposited data

How the results depend on the processing

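No paired analysis was possible because both replicates were merged before peaks were called, and for the same reason no replicate could be left out. The alternatives gave 219 values for 50 results, of which 201 kept their direction or stayed within their interval. The H3K27ac ratio of eA to aNPC stayed above 1 for Nfia and Nfix and below 1 for Nfib under every alternative run. The ratios that crossed 1 were near it. With a −log10 q of at least 5, H3K27ac of Nfic gave 0.95, and H3K4me1 gave 0.926 for Nfic and 0.980 for Nfix. With lists of equal length H3K4me1 gave 0.882 for Nfib, 0.929 for Nfic and 0.85 for Nfix, and with the gene body alone Nfic gave 0.917. With the summit required in the promoter, 2 members had an H3K4me1 promoter peak in lA. When sites up to 500 bp apart were joined, 57.0% of the family's H3K4me1 sites were found at all stages, against 46.5% of all sites, and 19.4% of those of Nfia in lA only, against 20.5%. With a −log10 q of at least 5, 12.6% of the H3K4me1 sites of Nfia were found in eA and lA. H3K4me1 within 500 bp preceded 71.0% of the family's H3K27ac peaks new at eA, against 77.1% of all. NFI cores in 500 bp were found at 32.3%, 32.6% and 31.4% of the family's peaks, against 27.6%, 29.7% and 27.1% of all, and in whole peaks at 35.4%, 29.1% and 29.6%, against 28.0%, 26.96% and 26.7%. Longer windows hold more letters, and stricter lists hold fewer peaks. The cause of the other changes was not tested. Without depth or replicates, a peak missing from a list may be one that fell below the caller's threshold.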
